A study of Homo sapiens with 9 samples.

Results

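AKR1A1, AKR1B1, AKR1B10, AKR1C1, AKR1C2 and AKR1C3 are 6 aldo-keto reductase genes among the 26625 genes to which the deposited count tables could be reduced. They were chosen by name, with earlier results of these libraries in view, and the difference between the A549 and HEK293T cell lines was among the values they were picked on. The values of that comparison are therefore given as a description with no test. Each gene is represented by its transcript entry with the most reads over the 7 libraries that have gene counts, and all 6 genes had such an entry.

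Aldo-keto reductases are cytosolic enzymes that use NADPH to turn aldehydes and ketones into alcohols. AKR1A1 is aldehyde reductase, AKR1B1 is aldose reductase, the enzyme that opens the polyol pathway by reducing glucose to sorbitol, and AKR1B10 reduces aliphatic aldehydes and retinal. The AKR1C enzymes reduce keto groups of steroids and prostaglandins, and AKR1B10 and the AKR1C genes are widely used as readouts of NRF2, the transcription factor of the antioxidant response.

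The libraries were made from total RNA of cultured HEK293T cells, a transformed human embryonic kidney line, and of A549 cells, a human lung carcinoma line. Both lines are labelled WT, and the labels name no treatment. Reverse transcription was started from adaptor-flanked oligo(dT) primers. The unanchored primers T12, T18 and T30 end in a run of 12, 18 or 30 T, and the anchored primers T18V, T18VN and T18VNN add to the 18 T 1 base other than T (V), followed by none, 1 or 2 arbitrary bases (N). HEK293T was profiled once with each of the 6 primers and A549 once with T12, so there was 1 library for each line and primer. The series holds 9 libraries, and the other 2 (a second HEK293T T12 and a first A549 T12 library) came with poly(T) lengths only and were not analysed here. The T12 primer is shown because it made both libraries of the cell line comparison, 5′ to 3′ with the final run of T in capitals:
T12: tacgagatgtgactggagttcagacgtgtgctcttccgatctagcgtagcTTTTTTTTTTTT

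Reads on genes, counted on 1 entry per gene, ranged from 1498196 in A549 to 5200792 in HEK293T T18, which was 11.7% to 37.5% of the library totals of 7491993 to 25578543 reads. Levels are given as reads of a gene scaled to the total reads on genes of the library (CPM). A level of 3 reads, used as the floor, was 2.00 CPM in A549 and between 0.577 and 1.35 CPM in the HEK293T libraries. Intervals are 95% intervals, and those of levels, shares and ratios cover the counting error of reads only, not the spread between samples. Reads carry no molecular identifiers, so copies of 1 molecule count as separate reads and these intervals can be too narrow. The label of A549 was set against 14 lung epithelial markers, of which KRT7, KRT8, KRT18, KRT19 and CDH1 were at least 2-fold higher in A549 than in HEK293T T12 (KRT8 and KRT18 overlap each other). The other 2 with at least 20 reads in either library were lower in A549: ABCA3 was 2.47-fold lower (10.7 against 26.3 CPM) and NKX2-1 at least 3.06-fold lower (0 against 20 reads). Their list summed to 3885 CPM in A549 against 20.5 to 54.5 CPM over the HEK293T libraries, while the alveolar type II genes SFTPA1, SFTPB, SFTPC, SFTPD and NAPSA, and the epithelial gene EPCAM, had 0 reads in A549. Of 10 genes listed for HEK293T, 9 had at least 20 reads, 6 were at least 2-fold lower in A549 and none was higher. Of 8 markers of leukocytes, erythroid cells, endothelium and fibroblasts, PTPRC, CD3E, HBB, PECAM1, VWF and COL3A1 had 0 reads in A549, and the list summed to 50.1 CPM there, mostly COL1A1, against 9.80 to 31.7 CPM in HEK293T.

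The members fall into 3 sequence groups, which bear on how well short reads can be told apart. The coding sequences, read from GENCODE 29 on GRCh38, were 972 bases long in AKR1C1, AKR1C2 and AKR1C3, 951 bases in AKR1B1 and AKR1B10 and 978 bases in AKR1A1. AKR1C1 and AKR1C2 were 98.0% identical, with 19 differing bases, AKR1C1 and AKR1C3 were 91.5% identical and AKR1C2 and AKR1C3 91.0%. Coding bases 61 to 210, counted from 1 at the start codon, are shown because this stretch holds 10 of the 19 differences between AKR1C1 and AKR1C2, among them T160G and A162T, where the AKR1C1 base stands first. Capitals mark the 19 positions at which any of the 3 genes differs from another:
AKR1C1: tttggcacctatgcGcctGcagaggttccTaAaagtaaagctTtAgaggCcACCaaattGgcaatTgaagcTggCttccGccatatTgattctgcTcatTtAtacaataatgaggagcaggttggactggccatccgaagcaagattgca
AKR1C2: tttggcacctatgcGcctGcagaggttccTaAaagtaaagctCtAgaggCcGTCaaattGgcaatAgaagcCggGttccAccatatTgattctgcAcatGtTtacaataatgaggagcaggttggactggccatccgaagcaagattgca
AKR1C3: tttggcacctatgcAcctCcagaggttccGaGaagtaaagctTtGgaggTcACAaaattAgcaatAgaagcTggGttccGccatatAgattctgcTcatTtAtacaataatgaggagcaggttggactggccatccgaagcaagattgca

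The last 48 bases of this stretch are the same in all 3 AKR1C genes. Of the 923 windows of 50 bases in the AKR1C1 coding sequence, 478 (51.8%) occurred unchanged in AKR1C2 and 135 (14.6%) in AKR1C3, and AKR1C2 shared 169 (18.3%) with AKR1C3. How reads that match several places were counted is not given in the sources used here, so the split of reads among these 3 genes is uncertain. The windows cover coding bases only, and sequence after the stop codon was not compared. Their shares therefore do not measure how many counted reads are affected. AKR1B1 and AKR1B10 were 75.3% identical and had no window of 50 bases in common. Coding bases 61 to 180 of both are shown for contrast, with the 27 differing positions in capitals, and no base was lost or gained between them:
AKR1B1: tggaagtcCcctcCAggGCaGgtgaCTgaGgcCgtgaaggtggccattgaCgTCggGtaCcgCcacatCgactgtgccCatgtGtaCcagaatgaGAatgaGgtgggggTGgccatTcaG
AKR1B10: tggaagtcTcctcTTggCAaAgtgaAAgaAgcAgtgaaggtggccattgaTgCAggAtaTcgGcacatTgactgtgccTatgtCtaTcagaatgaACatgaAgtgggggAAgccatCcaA

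AKR1B10 was closer to AKR1B15, a neighbouring gene that was not chosen, with 85.3% identity and 178 of its 902 windows (19.7%) in common. AKR1A1 was 58.3% identical to AKR1B1 and shared no window with any other member.

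**Figure D1:**
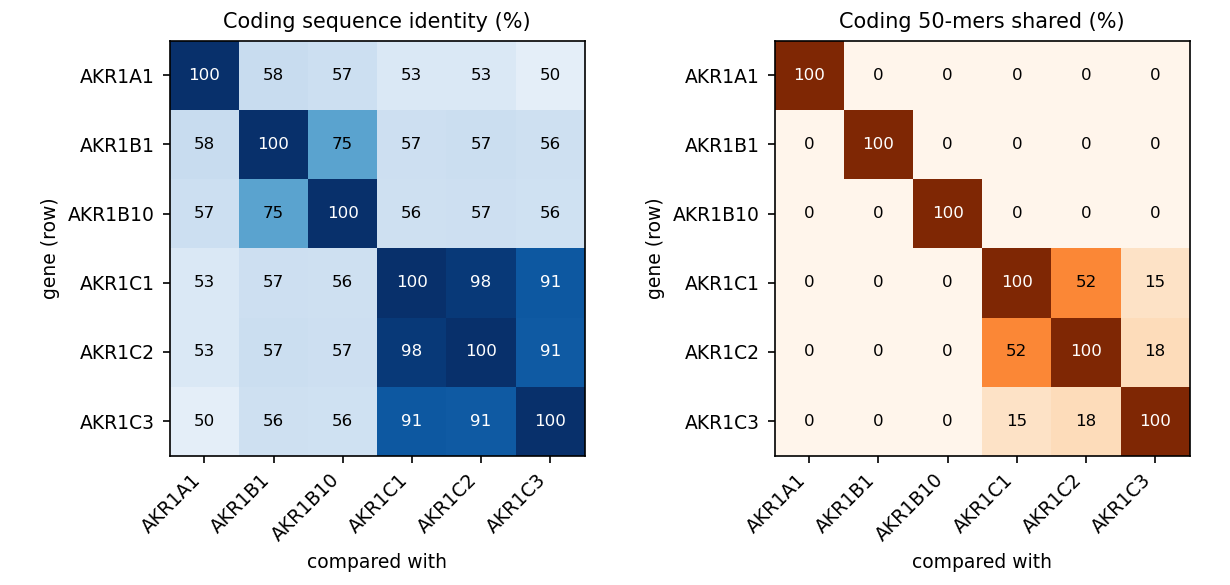
Identity of the coding sequences (left, percent of aligned columns) and windows of 50 coding bases of the row gene that occur in the column gene (right, percent) for the 6 members. The 3 AKR1C genes form the only block with shared windows, from 14.6% to 51.8%.

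In the hg19 coordinates of the count tables, AKR1A1 lies at chr1:46016455-46035723 on the plus strand. AKR1B1 lies at chr7:134127102-134143944 on the minus strand and AKR1B10 at chr7:134212344-134226166 on the plus strand, 68399 bp apart. AKR1C1 lies at chr10:5005454-5020158 on the plus strand, AKR1C2 at chr10:5029967-5060225 on the minus strand, 9808 bp away, and AKR1C3 at chr10:5136568-5149878 on the plus strand. No entry of another gene overlapped any of the 6, so reads of an overlapping or antisense gene were not a source of doubt for them as they were for some genes named below.

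A549 had more reads of every member than HEK293T T12, and 4 of the 6 had no read there. All 6 were at least 2-fold higher in A549, beside 3146 of the 10145 genes that reached 20 reads in the higher of both libraries (31%), and the members' median log2 ratio was 8.77 beside 0.02 for all those genes. As 4 of the 6 ratios rest on 0 reads and the added 1 CPM, the members' median was 12.09 with 0.1 CPM added, 6.46 with 5 CPM added, 5.90 when scaled to the library total, and 8.89 with those genes set at their bound against 3 reads. Since the members were chosen on this contrast, nothing further is read from the count. Together they took 17507 reads in A549, 1.17% of its reads on genes (95% Wilson interval 1.15 to 1.19%), against 0.0369% (T30) to 0.0639% (T18V) in the HEK293T libraries. In RNA of whole cultures, fewer expressing cells and less RNA per cell cannot be told apart.

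**Figure D2:**
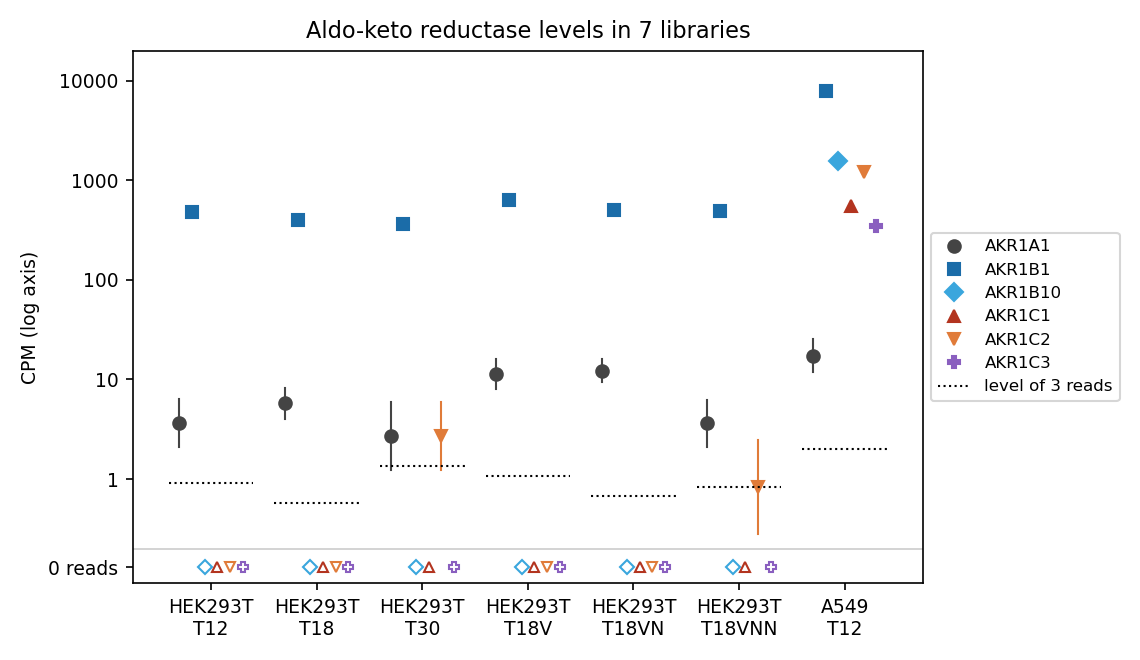
CPM of the 6 members in each library on a log axis, with 95% Wilson intervals; open symbols below the grey line stand for 0 reads and dotted lines for the level of 3 reads. AKR1B1 was between 363 and 628 CPM in the HEK293T libraries, and AKR1B10, AKR1C1 and AKR1C3 had 0 reads in all of them.

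AKR1A1, the aldehyde reductase of the group, had the lowest level of the members in A549, and few reads in each library. It had 12 reads in HEK293T T12 (3.67 CPM), 30 in T18 (5.77 CPM), 6 in T30 (2.71 CPM), 32 in T18V (11.4 CPM), 55 in T18VN (12.3 CPM) and 13 in T18VNN (3.61 CPM). A549 had 26 reads (17.4 CPM, 11.8 to 25.4). In CPM A549 was above all 6 HEK293T libraries, 1.41-fold above the highest of them. Scaled to the library total, as in FPKM, the direction turned against 2 of them: A549 had 1.48 FPKM against 2.70 FPKM in T18V and 2.18 FPKM in T18VN. Against HEK293T T12 the ratio was 4.72-fold (2.30 to 10.3), a log2 ratio of 1.97 with 1 CPM added to each level. Against T18V and T18VN the log2 ratio was 0.57 and 0.47, under the 2-fold threshold.

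AKR1B1, aldose reductase, was the member with reads in quantity in both lines. It had 1569 reads in HEK293T T12 (480 CPM), 2070 in T18 (398 CPM), 805 in T30 (363 CPM), 1764 in T18V (628 CPM), 2229 in T18VN (497 CPM) and 1766 in T18VNN (491 CPM). A549 had 11949 reads (7976 CPM), far outside the range of the HEK293T libraries. The ratio to HEK293T T12 was 16.6-fold (15.7 to 17.5), a log2 ratio of 4.05, and to the highest HEK293T library, T18V, 12.7-fold. AKR1B1 made up 97.6% to 99.2% of the members' reads in the HEK293T libraries and 68.3% in A549.

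AKR1B10, the close relative of AKR1B1, had 0 reads in each of the 6 HEK293T libraries and 2354 reads in A549 (1571 CPM, 1509 to 1636). Against the floor of 3 reads in HEK293T T12, the level in A549 was at least 1710-fold higher. Against a floor of 3 reads over the 6 HEK293T libraries pooled, it was at least 11297.5-fold higher, and 0 reads there allow a level of up to 0.139 CPM. AKR1B15, which lies 7682 bp from AKR1B10 and is named here after its values were seen, had 16 reads in A549 and 0 in every HEK293T library.

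AKR1C1, which reduces progesterone to a weaker progestin, had 0 reads in each HEK293T library and 824 reads in A549 (550.0 CPM, 514 to 589), at least 599-fold above the floor in HEK293T T12. AKR1C2, which inactivates dihydrotestosterone, had 0 reads in HEK293T T12, T18, T18V and T18VN, 6 in T30 (2.71 CPM) and 3 in T18VNN (0.834 CPM). A549 had 1836 reads of AKR1C2 (1225 CPM, 1171 to 1283), at least 1334-fold above the floor in HEK293T T12 and 453-fold above T30. AKR1C2 was the only AKR1C member with reads in HEK293T, and its reads in T30 stood above the floor of that library. AKR1C3, which makes testosterone from androstenedione and also acts on prostaglandins, had 0 reads in each HEK293T library and 518 reads in A549 (346 CPM, 317 to 377), at least 376-fold above the floor in HEK293T T12. Over the 6 pooled HEK293T libraries the bound was 3955-fold for AKR1C1 and 2486-fold for AKR1C3, and for AKR1C2, with 9 reads there, the ratio was 2937-fold (1544 to 6434).

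**Figure D3:**
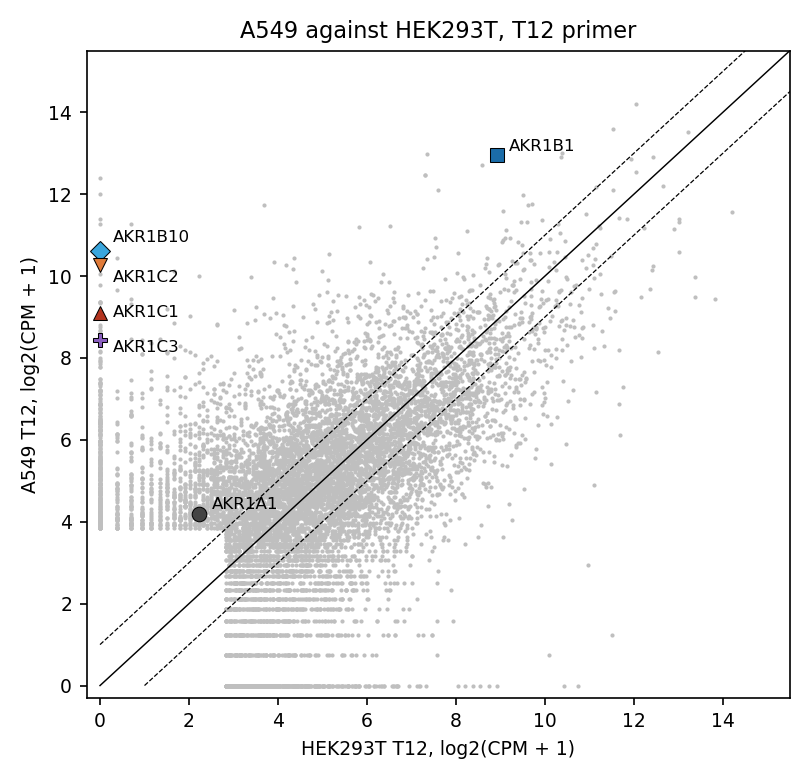
Level in A549 T12 (vertical) against HEK293T T12 (horizontal), both as log2(CPM + 1), for the 10145 genes that reached 20 reads in either library; the solid line marks equal levels and the dashed lines 2-fold. The members lie above the upper dashed line, 4 of them at 0 reads in HEK293T T12.

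In CPM all 6 members were above every HEK293T library as well as 2-fold above T12, a pattern held by 2683 of the 10145 genes (26.4%); scaled to the library total 5 of the 6 were, without AKR1A1. By log2 ratio AKR1B10 ranked 5, AKR1C2 ranked 8, AKR1C1 ranked 17 and AKR1C3 ranked 28 among the 10145 genes, whereas AKR1B1 ranked 629 and AKR1A1 ranked 1854. Of the 7612 genes with at least 20 reads in A549, 171 (2.25%) had 0 reads in all 6 HEK293T libraries. Among those 171, AKR1B10 had the third most reads, AKR1C1 ranked 6 and AKR1C3 ranked 10.

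Per length of transcript, the order within A549 was AKR1B1, AKR1B10, AKR1C1, AKR1C2, AKR1C3 and AKR1A1. Their levels were 736, 133, 53.7, 45.8, 38.0 and 1.48 FPKM (the deposited value, which scales reads to the transcript length and to the library total). By FPKM they ranked 11, 61, 175, 207, 257 and 4585 among all genes of that library. AKR1B1 stood 5.55-fold (5.31 to 5.81) above AKR1B10, and AKR1B10 2.47-fold (2.28 to 2.68) above AKR1C1. AKR1C1 was 1.17-fold (1.08 to 1.27) above AKR1C2 and AKR1C2 1.20-fold (1.09 to 1.33) above AKR1C3, small steps for the entry lengths used. The intervals take those lengths as given. Reads were not spread evenly along the entries, as a short AKR1C2 entry that lacks the 3′ part held 8 of the 1836 reads. Where reads lie toward the 3′ end, division by length lowers long entries most. The order per length need therefore not be the order of transcript numbers. The AKR1B1 entries, 1381 to 2057 bases long, held the same 11949 reads, so levels per length depend on the entry. With 1 library there is no spread between samples to hold these steps against. In HEK293T T12 the levels were 56.8 FPKM for AKR1B1 and 0.401 FPKM for AKR1A1.

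The order among the AKR1C genes depended on the length given to the transcript. AKR1C2 took 57.8% of the 3178 AKR1C reads in A549 (56.0 to 59.5), AKR1C1 25.9% (24.4 to 27.5) and AKR1C3 16.3% (15.1 to 17.6). The AKR1C2 entry is 3606 bases long, against 1379 for AKR1C1 and 1224 for AKR1C3, and per length AKR1C1 came first. The entry counted for AKR1C1 is much shorter than the GENCODE transcript with the same coding sequence, which is 6705 bases long with 5541 bases after the stop codon. Reads beyond the end of the counted entry are not in the AKR1C1 count.

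Alternative entries of a gene shared nearly all reads or hardly any. The 4 AKR1A1 entries and the 3 AKR1B1 entries each held the same number of reads in A549. The short AKR1C2 entry, at chr10:5042103-5046206, held 8 of the 1836 reads (0.436%), and the short AKR1C3 entry, at chr10:5136568-5140368, held 20 of the 518 (3.86%). An AKR1C3 entry with a start further upstream, at chr10:5090958-5149878, held 498 reads (96.1%), 20 fewer than the entry kept. Both short entries lack the 3′ part of the kept entry, and most reads of both genes fell outside them.

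Between primer classes, neither member with enough reads passed the test. The 3 anchored HEK293T libraries were compared with the 3 unanchored ones by the quasi-likelihood test of edgeR, with primers standing in for replicates. The p-values measure only the spread between these libraries. Of the 10887 genes tested, 147 (1.35%) passed an adjusted p of 0.05, 85 higher and 62 lower with anchored primers, and leaving out 1 library at a time gave 46 to 111 such genes. Of the members, 2 had enough reads to be tested and 0 passed, 0 also at an unadjusted p of 0.05 (1694 genes did). DESeq2, which called 603 genes, did not call AKR1B1 (adjusted p = 0.829) and gave AKR1A1 no adjusted p. AKR1B10, AKR1C1, AKR1C2 and AKR1C3 had too few reads in HEK293T to be tested. On counts simulated for this comparison over 10639 genes, the test recovered 12 of 80 genes changed 2-fold, 61 of 63 changed 4-fold and 57 of 57 changed 8-fold. A change near 2-fold would thus often be missed. The simulation set a smaller spread between libraries than these data showed (biological coefficient of variation 0.484). It changed only genes with more reads than AKR1A1, which had 148 over the HEK293T libraries. The recovery rates are therefore likely too high for these data and do not cover AKR1A1.

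AKR1B1 averaged 414 ± 60.2 CPM (SD, n = 3) with unanchored and 539 ± 77.0 CPM (SD, n = 3) with anchored primers. The edgeR log2 fold change was 0.21 (SE 0.27, interval -0.32 to 0.75, adjusted p = 0.776 with Benjamini-Hochberg adjustment). In CPM every anchored library was above every unanchored one, a separation in either direction that 2574 of the 10887 genes showed (23.6%). After the TMM scaling of edgeR, T12 (507 CPM) lay above T18VN (478 CPM) and T18VNN (465 CPM), so the classes overlapped. Scaled instead to the library totals with no TMM, the log2 fold change was 1.31 and the adjusted p 0.0440, while the median of all genes moved to 1.07 and AKR1B1 was 0.24 above that median.

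AKR1A1 averaged 4.05 ± 1.56 CPM (SD, n = 3) with unanchored and 9.09 ± 4.76 CPM (SD, n = 3) with anchored primers. The edgeR log2 fold change was 0.97 (SE 0.75, interval -0.51 to 2.45, adjusted p = 0.600). Scaled to the library totals with no TMM it was 2.01 (adjusted p = 0.0910), 0.93 above the median of all genes. T18V and T18VN were high and T18VNN was as low as T12, so the classes overlapped.

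**Figure D4:**
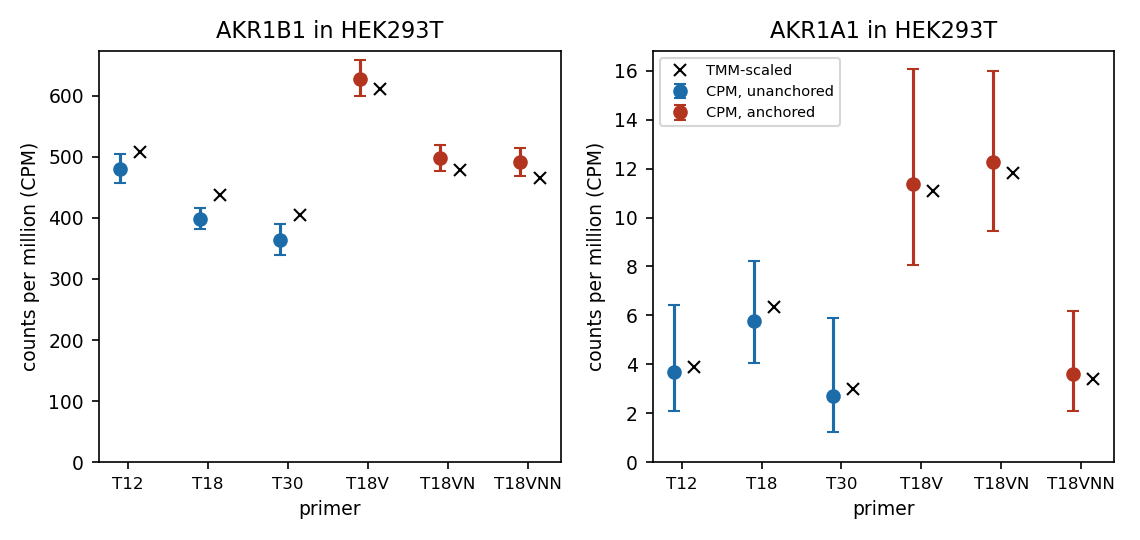
AKR1B1 (left) and AKR1A1 (right) in the 6 HEK293T libraries in CPM with 95% Wilson intervals (circles) and after TMM scaling (crosses). T18V is the highest library for AKR1B1 at 628 CPM and T30 the lowest at 363 CPM.

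AKR1B1 varied less across primers than most genes, which were not matched to it for reads. The coefficient of variation of AKR1B1 over the 6 HEK293T libraries was 19.3%, at percentile 5.59 of the 11131 genes with a mean of at least 10 reads, whose median was 46.1% (quartiles 32.6% and 64.2%). AKR1B1 had 10203 reads over these libraries, and genes with few reads vary more by counting error alone. How far its rank reflects depth was not tested. The highest library, T18V, was 1.73-fold (1.59 to 1.88) above the lowest, T30; scaled to the library totals this ratio was 5.55. AKR1A1 had a coefficient of variation of 64.0%, at percentile 74.8, and T18VN was 4.53-fold (1.95 to 12.9) above T30, with 6 to 55 reads per library behind it.

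Step by step along the primers, AKR1B1 was lower in CPM with a longer unanchored run. T18 was 0.828 times T12 (0.775 to 0.885) and T30 was 0.756 times T12 (0.694 to 0.824). Adding the anchor base to T18 went with a ratio of 1.58 (1.48 to 1.68) in T18V. Adding an arbitrary base went with 0.793 (0.744 to 0.844) in T18VN relative to T18V, and the last base with 0.987 (0.927 to 1.05) in T18VNN relative to T18VN. In CPM all of these steps were under 2-fold, a size that 23.6% to 36.9% of genes reached in the same pairs of libraries. Scaled to the library total, T12 and T18 were nearly level (56.8 and 55.5 FPKM) and T30 was lower (29.1 FPKM). On that scale T18V (161 FPKM) was more than 2-fold above T18. For AKR1A1 the step from T18VN to T18VNN was the largest in CPM, at 0.294 (0.148 to 0.546), and T18V was 1.97 times T18 (1.16 to 3.36). Scaled to the library total, the step from T18 (0.742 FPKM) to T18V (2.70 FPKM) was the larger of these. These ratios compare single libraries, and their intervals cover counting error only.

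The sequence before the start sites was set beside the levels because the 3 AKR1C genes were all high in A549. RefSeq promoter windows on GRCh38.p14, 250 bases before to 50 after a start, matched 5 of the 6 members with 7 windows. AKR1B10 had no window, so the values and motif counts below do not cover it. The start named below is the one given with each window. The GENCODE transcripts used for the coding sequences start at base 4963253 for AKR1C1, 5004023 for AKR1C2 and 5093793 for AKR1C3. The AKR1C stretches printed below lie after those GENCODE starts, within the span of the transcripts. They may therefore not be promoter sequence, and which starts these cells use was not tested. The AKR1C windows had a GC content of 33.7% to 41.3% and 0 to 3 CpG, against 61.3% and 21 for AKR1A1. The 2 AKR1B1 windows had 68.7% and 33 CpG, and 54.3% and 18 CpG. Over all 35116 promoter windows the median was 58.7% GC, 10% of windows lay below 39% GC, and the median was 14 CpG. The 250 bases before the start were 96.5% identical between AKR1C1 and AKR1C2 and 63.1% to 70.7% identical in the pairs with an AKR1C3 window. The 150 bases before the start are shown for chr10:4963265-4963414 (plus strand), chr10:5003858-5004007 (minus strand) and chr10:5094264-5094413 (plus strand), each read along its gene, with the letters ATTGG, the complement of CCAAT, in capitals:
AKR1C1 promoter: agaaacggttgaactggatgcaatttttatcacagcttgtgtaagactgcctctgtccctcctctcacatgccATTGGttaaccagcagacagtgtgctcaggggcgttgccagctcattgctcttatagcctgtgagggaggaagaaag
AKR1C2 promoter: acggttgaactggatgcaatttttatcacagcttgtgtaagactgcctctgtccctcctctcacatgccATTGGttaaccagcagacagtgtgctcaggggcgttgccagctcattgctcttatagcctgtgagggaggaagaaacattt
AKR1C3 promoter: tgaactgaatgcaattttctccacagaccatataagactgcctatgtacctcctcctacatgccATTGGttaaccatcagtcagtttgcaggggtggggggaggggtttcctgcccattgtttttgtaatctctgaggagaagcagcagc

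The letters CCAAT, searched on both strands, occurred in 6 of the 7 windows and in 34.6% of all promoter windows. The 7 windows were not independent: the 2 AKR1B1 windows overlap and hold the same CCAAT, and the AKR1C1 and AKR1C2 windows are near copies. The counts over the 7 windows can therefore not be weighed against the shares over all windows. In the AKR1C windows the letters CCAAT stood on the opposite strand starting at base -77 relative to the start in AKR1C1, -81 in AKR1C2 and -73 and -86 in the 2 windows of AKR1C3. TATAAA occurred in 1 of the 7 windows and in 11.5% of all. TGACNNNGC, the core of the antioxidant response element bound by NRF2, occurred in 0 of the 7 and in 13.3% of all, and TGANTCA, the AP-1 site, in 0 of the 7 and in 7.71% of all. Where 2 motifs share letters, a match to 1 was not removed from the other, and no match says only that the letters are not in these 300 bases.

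The genes around the members were described by 7 lists of 118 genes, of which 77 had at least 20 reads in the higher of the 2 T12 libraries. Of these, 46 were at least 2-fold higher in A549 and 12 lower, beside 31% higher and 29.2% lower over all 10145 genes. The lists were also chosen with earlier results of these data known, so their counts and medians are a description only. Of the 65 list genes tested between primer classes, 1 passed. Among 11 other aldo-keto reductases, 3 had 20 reads: KCNAB1 and KCNAB2, which code for potassium channel subunits, were 5.05-fold and 8.72-fold higher in A549 (KCNAB2 just under 2-fold against T18VNN, log2 ratio 0.99), and AKR7A2, an aflatoxin aldehyde reductase, was 2.71-fold lower. AKR1C4, AKR1D1 and AKR1C8, also close relatives, had 0 reads in all 7 libraries. KCNAB1 overlaps antisense genes, and strand use is not given for the counts.

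Carbonyl reductases, which share substrates with the members, did not lean to A549. Of 11 measured, 2 were higher and 4 lower, with a median log2 ratio of -0.04. CBR1 stood at 53.4 CPM in A549 against 48.7 CPM in HEK293T T12, DHRS2 was 6.59-fold lower in A549, and DHRS4 had 24.7 against 40.7 CPM. The direction of DHRS4 turned with the primer, from a log2 ratio of -1.94 against T18V to 2.22 against T30. CBR1 and DHRS4 overlap antisense genes. In the polyol and osmolyte list, 3 of 6 were higher and 1 lower, with a median of 1.14. SORD, which turns the sorbitol made by AKR1B1 into fructose, was at 27.4 CPM in A549 against 47.8 CPM in HEK293T T12, below 2-fold in the direction opposite to AKR1B1; it passed 2-fold lower with TMM (log2 ratio -1.05) and against each of the other 5 HEK293T libraries (-1.35 to -2.02). NFAT5, the transcription factor of the response to high salt, was 20.7-fold higher, and TKFC, which overlaps 2 genes, had 96.8 against 158 CPM, and a log2 ratio of -1.01 when scaled to the library total.

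Among steroid and prostaglandin enzymes, the partners of the AKR1C genes, 9 of 15 were higher and 0 lower, with a median of 2.16. The 3 with most reads were not the ones that differed most: PTGES3, a co-chaperone with prostaglandin E synthase activity, was 2.44-fold higher, HSD17B11 had 290 against 182 CPM and HSD17B10 17.4 against 34.6 CPM. PTGES3 was under 2-fold higher scaled to the library total (log2 ratio 0.90) and against T18VN (0.42) and T18VNN (0.18). HSD17B10 passed 2-fold lower scaled to the library total (-1.06), with TMM (-1.22) and with the DESeq2 factors (-1.04). It also did so against T18 (-1.29), T18V (-1.84), T18VN (-1.91) and T18VNN (-1.32), but not against T30 (0.09). HSD17B11 passed 2-fold higher against T30 as well as T18V (log2 ratio 4.99), T18VN (2.77) and T18VNN (2.11). In the retinoid list, 4 of 11 were higher and 4 lower, with a median of -0.59. ALDH1A1, which oxidises the retinal that AKR1B10 reduces, had 6115 reads in A549, where it was at least 4443-fold higher than in HEK293T T12 with its 0 reads, and ALDH1A2, with the same reaction, was at least 31.8-fold lower with 0 reads in A549. RDH11, a retinal reductase, was 2.03-fold higher than in T12 and under 2-fold higher against each of the other 5 HEK293T libraries (log2 ratio 0.19 to 0.91).

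Among other alcohol and aldehyde dehydrogenases, 5 of 7 were higher and 1 lower, with a median of 2.98. ALDH3A1 had 2096 reads in A549 against 1 in HEK293T T12, ALDH7A1 was 2.35-fold higher than in T12 and ALDH9A1 2.70-fold lower. ALDH7A1 had 63.4 CPM in A549 but up to 93.8 CPM in the HEK293T libraries, so its direction turned with the primer, and ALDH9A1 was under 2-fold lower against T18V (log2 ratio -0.18). Of the NRF2 regulators and targets, 21 of 24 were higher and 1 lower, with a median of 3.01, and PGD and TKT of the pentose phosphate pathway, the source of NADPH, were 7.79-fold and 5.69-fold higher, TKT under 2-fold against T18V (log2 ratio 0.50). FTL, the ferritin light chain, was 4.49-fold higher in A549 T12 than in HEK293T T12 and was the list gene that fell with anchored primers (edgeR log2 fold change -2.29, SE 0.33, adjusted p = 0.00767). Scaled to the library totals the change was -1.07 with an adjusted p of 0.0749. Its HEK293T libraries ranged from 805 to 5855 CPM, a wider range than that of AKR1B1.

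**Figure D5:**
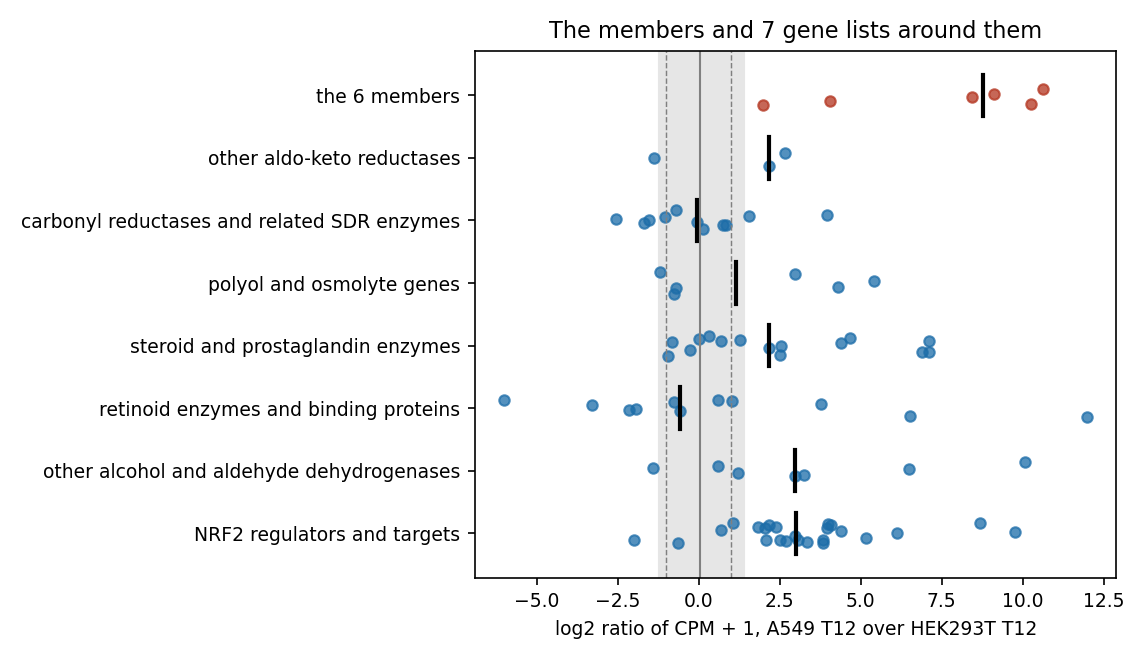
Log2 ratio of CPM + 1 between A549 T12 and HEK293T T12 for the 6 members and for the genes of 7 lists that reached 20 reads in either library; each point is a gene, thick bars are medians, dashed lines 2-fold, and the grey band holds the middle quartiles of all 10145 genes around their median of 0.02. The members' median of 8.77 lies to the right of the list medians, which run from -0.59 to 3.01. The members were chosen on this contrast, and the lists with earlier results of these data known.

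The genes whose levels over the 7 libraries were most like each member were found by the root mean square difference of log2(CPM + 1), a description with no test. For AKR1B10 they were KRT7 (0.07), ALDH3A1 (0.16) and CPLX2 (0.21), with 1370, 1399 and 1063 CPM in A549 and at most 0.306 CPM in any HEK293T library. For AKR1C1 they were MLPH (0.12), ELF3 (0.13) and GPX2 (0.16), and for AKR1C3 CLDN2 (0.03), FGA (0.09) and GPX2 (0.09). GPX2 overlaps CHURC1-FNTB, and MLPH overlaps MIR6811. KRT7 is a keratin of simple epithelia, ELF3 an epithelial transcription factor and FGA the fibrinogen alpha chain. AKR1C2, with its few reads in T30 and T18VNN, was farther from its nearest genes, KRT7 (0.79), CPLX2 (0.79) and AKR1B10 (0.80). AKR1B1 was nearest to CAPN12 (0.66), which overlaps ACTN4, and to the ribosomal protein genes RPL38 (0.74) and RPS21 (0.84). AKR1A1 was nearest to SOX9 (0.28), RPAP1 (0.33) and RB1 (0.34), which had 14.0 to 26.0 CPM in A549, a level of few reads at which likeness is loose. RB1 overlaps LPAR6. Genes with 0 reads in HEK293T are alike there by the floor alone, so this measure orders them mostly by their level in A549.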

How the data were processed

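The authors deposited read counts per RefSeq transcript, with FPM, a signal scaled to the library total, and FPKM, in tables whose file headers have the layout of RSeQC output. Per the submitters' processing notes the tools were FastQC 0.11.8, cutadapt 2.10, Trimmomatic 0.39, HISAT2 2.2.1 and SAMtools, with hg19. Strand use, the annotation release and how multiply matching reads were counted are not given in the sources used here. Of 61177 entries, 60133 (98.3%) matched a RefSeq symbol, and per gene the entry with the most reads was kept, giving 26625 genes.

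The members and all gene lists were chosen with earlier results of these data known. Cell lines were compared as log2(CPM + 1) without a test (1 library each), called at 2-fold where either library reached 20 reads. Primer classes were tested with edgeR 4.0.16 (filterByExpr, TMM, glmQLFTest, Benjamini-Hochberg over all genes tested) in R 4.3.3, after a check on simulated counts, with DESeq2 1.42.0 as an alternative. Other alternatives changed the scaling, pseudocount, low-count filter, transcript entry, HEK293T library compared or left out 1 library. Named genes are the members, the 3 genes of each list with the most reads, list genes past the edgeR threshold, and the 3 genes nearest each member. AKR1B15, AKR1C4, AKR1C8 and AKR1D1 were added after their values were seen, as were the marker genes listed at 0 reads. Sequences came from GENCODE 29, RefSeq and the series design text. Poly(T) length and coverage files were not used.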

Additional observations from a re-analysis of the deposited data

How the results depend on the processing

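All 6 members stayed at least 2-fold higher in A549 under every scaling, pseudocount, filter and transcript alternative, with AKR1A1 lowest at 1.03 (log2) when scaled to the library total. The exceptions were AKR1A1 against HEK293T T18V and T18VN, as given above. Scaled to the library total, AKR1A1 was also lower in A549 than in T18V and T18VN. Genes at least 2-fold higher numbered 5159 with no filter on low counts, against 3146. The higher share of 2-fold calls was 51.5%, but 42.3% scaled to the library total (median log2 ratio of all genes -0.26), 44.0% with TMM (-0.24), and 43.5% against HEK293T T18VN.

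Between primer classes, 603 genes passed with DESeq2, 556 with no filter and 2274 with the library total and no TMM, where 97.7% were higher and 1 member, AKR1B1, passed (57.8% higher in the main comparison, 45.9% with DESeq2). Leaving out 1 library gave 46 genes (without T18VNN), 54 (without T30), 63 (without T18V), 85 (without T18), 107 (without T12) and 111 (without T18VN), with 0 members in each. The causes were not tested. The highest over lowest AKR1B1 level was 1.37 to 1.73 with 1 library left out, lowest without T18V, and 5.55 scaled to the library total. No paired analysis was possible because each primer has 1 HEK293T library with gene counts. The titles number replicates for T12 only and pair no libraries across the classes. Depth limits AKR1A1, with 6 to 55 reads per library, and the members at 0 reads, whose folds are bounds.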
